A study of Homo sapiens with 16 samples.

Results

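What palbociclib adds to indisulam in SUM159 cells was read by comparing the libraries labelled SUM159 P+I (2 replicates) with those labelled SUM159 IN (2 replicates). These are 4 of the 16 libraries of the series, chosen by cell line and treatment label alone. SUM159 is an established human triple-negative breast cancer cell line, and the other line of the series, A549, is an established human lung cancer cell line. RNA was sequenced after 16 h without drug, with 2 µM palbociclib, with 3 µM indisulam or with both. The indisulam group (I) thus received 3 µM indisulam alone and the combination group (P+I) received 3 µM indisulam and 2 µM palbociclib, so indisulam is common to both sides of the comparison. The study calls its duplicates technical, so every test below measures the spread between these samples, which may be technical. The question was what a CDK4/6 inhibitor adds to the transcriptome of cells in which RBM39 is being removed.

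Palbociclib inhibits CDK4 and CDK6, the kinases that, bound to D-type cyclins, phosphorylate the retinoblastoma protein RB and its relatives. Unphosphorylated RB holds E2F factors inactive, and E2F factors otherwise switch on the genes of DNA replication. The MuvB complex works with MYBL2 and FOXM1 to switch on the later genes of mitosis. Indisulam glues the splicing factor RBM39 to the DCAF15 ubiquitin ligase, which leads to its degradation.

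Each of the 4 libraries held between 25095187 and 30476269 reads counted in genes, so that 3 counts, taken as the smallest level that could be seen, lay between 0.0984 and 0.120 CPM (CPM, the read count of a gene relative to the scaled size of its library; this floor covers counting error only). The mesenchymal markers VIM, CD44, ZEB1 and FN1 were at 45.4 CPM or more in all 4 libraries, the epithelial genes CDH1 and EPCAM did not exceed 0.593 CPM, and ALDH1A1, an abundant gene of A549, had at most 2 counts. The hormone receptor genes ESR1 and PGR had at most 13 and 1 counts. CDKN2A, in the marker list as a gene that SUM159 should express and A549 should not, had 0 or 1 counts in every SUM159 library. It had 24 to 56 counts in the A549 libraries. The study reports more p16INK4A protein, which CDKN2A encodes, in SUM159 after a longer treatment, and calls A549 p16 null. The counts here run the other way between the lines, and the cause was not tested. ERBB2, listed as low, was at 114 to 145 CPM. The summed level of the 7 A549 markers was 669 and 677 CPM with indisulam and lay between 683 and 706 CPM with the combination. Of these markers, KRT18 was at 326 to 358 CPM, against 4081 to 6902 CPM in the A549 libraries. NQO1 was at 245 to 269 CPM, against 1986 to 2589 CPM, and AKR1C1 at 60.7 to 95.7 CPM, against 1128 to 1740 CPM. The 4 mesenchymal markers were also present in A549, from 32.4 CPM (ZEB1) upward, each below its lowest level in the 4 SUM159 libraries. Reads in no annotated feature made up 5.70% and 6.08% of the indisulam libraries and 6.78% and 5.94% of the combination libraries. On the first 2 principal components, which held 48.3% and 32.4% of the variance, the duplicates of each SUM159 group lay together, and no library stood apart within its group.

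The genes that the study followed are given first. RBM39 mRNA, which codes for the protein that indisulam degrades, was at 486 and 479 CPM with indisulam and 389 and 408 CPM with the combination (log2 change -0.27, SE 0.04, adjusted p = 4.56e-06 by edgeR's quasi-likelihood test). Both combination libraries were below both indisulam libraries, and all 4 were above the untreated libraries, at 229.6 and 224 CPM. A transcript level does not report on a protein that is removed by degradation, and palbociclib blocks kinase activity, so no transcript in these files checks the treatment labels directly. CCNH, the cyclin partner of the CDK-activating kinase CDK7, was at 19.8 and 21.1 CPM with indisulam and 23.5 and 20.997 CPM with the combination, against 54.6 and 53.8 CPM without drug. The palbociclib comparison did not pass the test for CCNH (log2 change 0.12, SE 0.07, adjusted p = 0.139) with the scaling used here, while with total counts as library sizes it was 0.22 higher on the log2 scale (adjusted p = 0.0133).

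CDK2, the kinase that follows CDK4/6 at the start of S phase, fell from 86.9 and 89.4 CPM to 38.8 and 39.03 CPM (log2 change -1.18, SE 0.05). Its partners differed. CCNE2, a cyclin E, was at 21.01 and 20.9 CPM with indisulam and 3.805 and 4.18 CPM with the combination (log2 change -2.39, SE 0.09), a 5.26-fold fall. The other cyclin E, CCNE1, was at 17.4 and 17.3 CPM with indisulam and 17.3 and 16.3 CPM with the combination and did not pass the test (log2 change -0.05, SE 0.07, adjusted p = 0.607), with a sign that turned to 0.049 under total counts. LMNB1, which codes for the nuclear lamina protein lamin B1, was at 178 and 179.97 CPM with indisulam and 41.9 and 40.5 CPM with the combination (log2 change -2.12, SE 0.04). MKI67, the proliferation antigen Ki-67, was at 459 and 478 CPM with indisulam and 90.8 and 80.1 CPM with the combination (log2 change -2.45, SE 0.07). CDKN1A, the CDK inhibitor p21, was at 33.6 and 34.01 CPM with indisulam and 27.2 and 28.1 CPM with the combination, a fall of 1.23-fold (log2 change -0.29, SE 0.06, adjusted p = 2.83e-04). The study reports more p21 protein in both lines after a longer treatment, which is another measure at another time. For CDK2, CCNE2, LMNB1, MKI67 and CDKN1A the combination libraries lay below the indisulam libraries with no overlap. With 2 libraries on each side this is common. The groups lay apart, in either direction, for 76.6% of all genes tested and for 99.9% of those called lower.

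**Figure D1:**
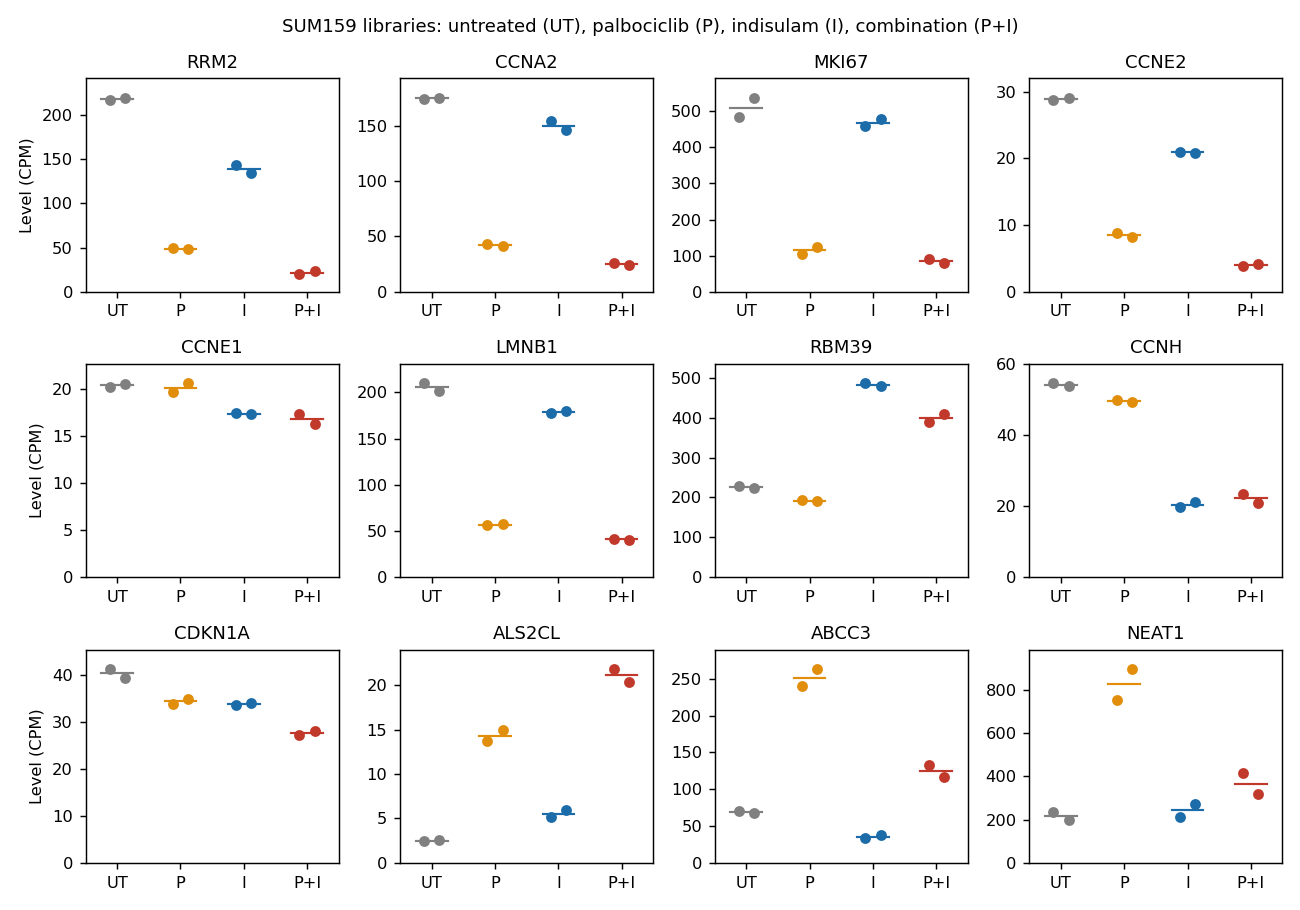
Level in CPM of 12 genes in the 8 SUM159 libraries, by group on the horizontal axis (UT untreated, P palbociclib, I indisulam, P+I combination). Points are libraries and lines are the means of 2. RRM2, CCNA2, MKI67, CCNE2 and LMNB1 were lower in both P+I libraries than in both I libraries, ALS2CL and ABCC3 were higher, CCNH overlapped between I and P+I, and CCNE1 was nearly level in them.

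Of 16080 genes tested, 8501 (52.9%) passed an adjusted p of 0.05, of which 4006 were higher with the combination (24.9% of genes tested) and 4495 lower (28.0%). The median log2 change over all genes was 0.01, where a log2 change of 1 is a 2-fold increase. Without the scaling step, with total counts as library sizes, 8623 genes were called, the median moved to 0.10 and the split turned to 5378 higher and 3245 lower, so small changes in either direction depend on the scaling. When all 16 libraries were fitted, 4837 of 8285 calls were higher. In bulk RNA, fewer cells in a given phase and less of an RNA in each cell cannot be told apart.

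The large changes were fewer and ran mostly one way among well expressed genes. A called change of at least 2-fold was seen for 1120 genes (6.97%), of which 740 were higher and 380 lower (4.60% and 2.36% of genes tested). Among the 10673 genes that averaged 5 CPM or more in the compared libraries, 126 rose and 279 fell by this much, and 38 fell by a log2 change of 2 or more while 0 rose by as much. Among the 5407 genes under 5 CPM, 614 rose and 101 fell at least 2-fold. The count filter can be met by 2 of the 8 libraries, so a gene near the floor in 1 group can enter through another. These low-level counts may thus be partly set by the filter. The genes that rose at least 2-fold had a median level of 0.956 CPM and 26.4% of them were long non-coding RNAs, against 28.6 CPM and 9.02% for those that fell at least 2-fold and 18.3 CPM and 12.2% over all genes tested. When the test asked for a change larger than 2-fold (edgeR's glmTreat), 273 genes passed, 72 higher and 201 lower.

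**Figure D2:**
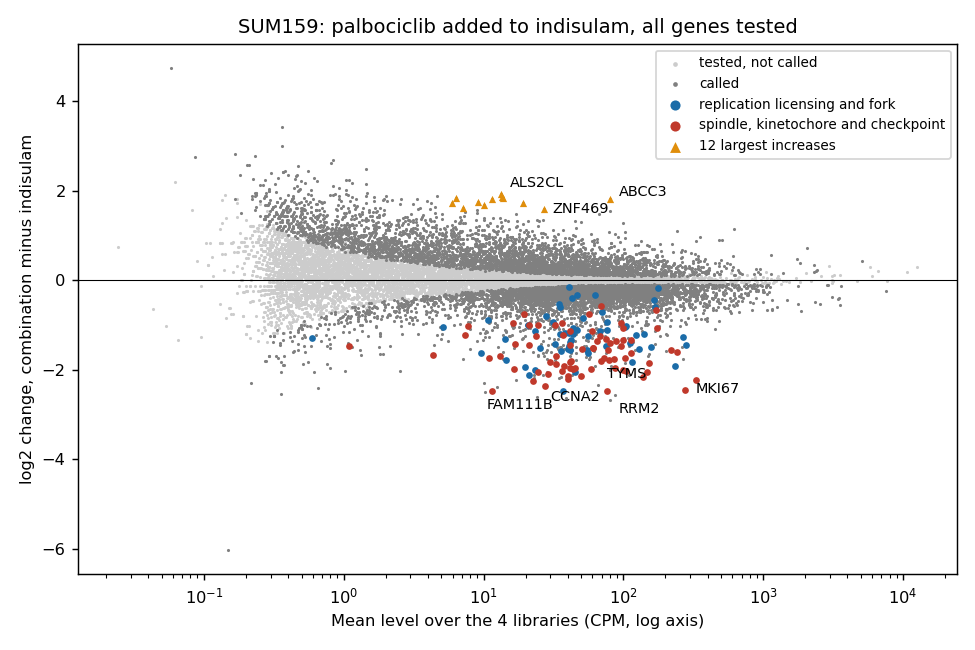
Log2 change (combination minus indisulam) of the 16080 genes tested against their mean level over the 4 libraries in CPM on a log axis. Dark grey points passed an adjusted p of 0.05, blue points are replication genes, red points are spindle genes and orange triangles are the 12 largest increases among genes of at least 5 CPM. The replication and spindle genes lie below 0 and the largest changes of well expressed genes are decreases.

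The 12 largest decreases among called genes of at least 5 CPM were RRM2, FAM111B, CDCA3, CCNA2, E2F8, SPC25, CLSPN, KIF20A, MKI67, CCNE2, AURKB and TYMS. RRM2, the regulated subunit of ribonucleotide reductase, which makes the building blocks of DNA, was at 143 and 134 CPM with indisulam and 19.96 and 23.3 CPM with the combination, a 6.45-fold fall (log2 change -2.69, SE 0.06, adjusted p = 9.46e-16). CCNA2, the cyclin of S phase and G2, was at 154 and 146 CPM with indisulam and 25.8 and 24.6 CPM with the combination (log2 change -2.57, SE 0.05). KIF20A, a kinesin of the central spindle, was at 130.02 and 131 CPM with indisulam and 23.3 and 23.4 CPM with the combination (log2 change -2.48, SE 0.04). In each of these genes both combination libraries lay far below both indisulam libraries. The groups lay apart for 99.9% of all genes called lower. TYMS, thymidylate synthase, was at 112 and 109 CPM with indisulam and 21.3 and 22.1 CPM with the combination (log2 change -2.34, SE 0.05). CLSPN, which codes for the replication checkpoint mediator claspin, was at 63.4 and 61.8 CPM with indisulam and 11.1 and 11.3 CPM with the combination (log2 change -2.48, SE 0.06). E2F8, an E2F family repressor, was at 16.6 and 18.2 CPM with indisulam and 3.09 and 3.04 CPM with the combination (log2 change -2.51, SE 0.11). The other 6, among them the kinetochore gene SPC25 and the Aurora kinase gene AURKB, had log2 changes from -2.63 (FAM111B) to -2.37 (AURKB). In the annotation, 9 of the 12 overlap a gene on the other strand.

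Promoters of these genes are shown because RB and E2F factors, and the MuvB complex, are known to act on cell cycle genes through short promoter motifs. Windows of RefSeq promoters (GRCh38.p14, 250 bases before to 50 after a start site) were found for 9 of the 12 genes. They were searched on both strands for E2F letters and for the cell cycle homology region, CHR. The E2F letters were TTCCCGC in the first form searched. The second form was TTGGCGC, the other common E2F site. The last forms searched were TTCGCGC, which changes a single base of the first form, and, with another change, TTGCCGC. The CHR letters were TTTGAA in the usual form and TTTAAA in the variant, which reads the same on both strands. Windows of 7 of the 9 genes held at least 1 match, and those of CCNA2 and AURKB held none. The stretches below run 5′ to 3′ on the gene's strand, from 80 bases before to 40 bases after the start site, with the matched letters in capitals. No E2F match overlapped a CHR match in them. The first 7 are genes with a match inside the stretch, and the last 2, CCNA2 and ALS2CL (the largest increase), are shown for comparison, as their windows held none of these letters. Only the exact letters above were searched, so a window without a match may still hold a site of another form. Of the 12 largest increases 4 had a window, and 1 of these, that of TMEM187, held a match, to the CHR letters at position 34.
RRM2: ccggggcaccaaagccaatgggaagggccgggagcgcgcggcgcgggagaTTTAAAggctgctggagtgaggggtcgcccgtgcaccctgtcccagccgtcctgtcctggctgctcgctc
CDCA3: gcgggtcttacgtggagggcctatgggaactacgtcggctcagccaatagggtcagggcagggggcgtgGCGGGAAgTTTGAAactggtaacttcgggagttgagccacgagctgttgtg
SPC25: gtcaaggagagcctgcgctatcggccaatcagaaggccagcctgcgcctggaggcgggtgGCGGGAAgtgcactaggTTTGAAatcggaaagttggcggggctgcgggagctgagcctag
CLSPN: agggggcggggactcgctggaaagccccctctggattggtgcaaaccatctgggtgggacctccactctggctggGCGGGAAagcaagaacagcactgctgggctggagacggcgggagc
KIF20A: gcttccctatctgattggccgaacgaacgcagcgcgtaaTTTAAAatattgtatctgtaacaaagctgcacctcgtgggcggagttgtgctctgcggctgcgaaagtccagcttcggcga
MKI67: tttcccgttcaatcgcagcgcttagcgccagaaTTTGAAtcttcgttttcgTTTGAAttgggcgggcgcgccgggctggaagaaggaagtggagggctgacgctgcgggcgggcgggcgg
TYMS: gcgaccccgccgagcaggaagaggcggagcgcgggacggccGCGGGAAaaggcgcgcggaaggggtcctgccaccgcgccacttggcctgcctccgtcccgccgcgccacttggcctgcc
CCNA2: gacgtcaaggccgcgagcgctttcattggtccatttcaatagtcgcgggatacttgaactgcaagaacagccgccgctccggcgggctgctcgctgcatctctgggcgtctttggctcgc
ALS2CL: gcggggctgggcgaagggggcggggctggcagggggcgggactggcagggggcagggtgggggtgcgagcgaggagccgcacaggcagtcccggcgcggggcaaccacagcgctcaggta

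These stretches lie at chr2:10122659-10122778 (RRM2, plus strand), chr12:6851247-6851366 (CDCA3, minus), chr2:168890391-168890510 (SPC25, minus), chr1:35769939-35770058 (CLSPN, minus), chr5:138179032-138179151 (KIF20A, plus), chr10:128126384-128126503 (MKI67, minus), chr18:657573-657692 (TYMS, plus), chr4:121823844-121823963 (CCNA2, minus) and chr3:46693640-46693759 (ALS2CL, minus). CDCA3 and SPC25 each held an E2F match followed by a CHR match whose first base was at position -3 from the start. In CLSPN and TYMS the match was to the E2F letters, at -5 and -39. RRM2 and KIF20A held TTTAAA at -30 and -41. MKI67 held TTTGAA at -47 and -29. A further RRM2 window, of an upstream start site, held an E2F match at -192.

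Over all genes, the share of promoter windows with a match was larger among genes that fell by more. Windows were matched by symbol to 11432 of the genes tested. Of all 35116 windows, 13% held the E2F letters and 24% the CHR letters, and of the 16601 windows of genes tested 18.3% and 17.8% did. Among genes called lower, 25.1% of 5127 windows held the E2F letters, against 13.2% of 4423 windows of genes called higher. The shares were 44.5% for genes with a log2 change of -2 to -1 and 43.6% for the 39 windows of genes that fell further. The CHR letters were in 53.8% of those 39 windows and in 33.1% of the next 317, against 17.4% for genes between -0.5 and 0 and 19.2% for genes that rose by 1 or more. The 2 motifs were spread differently over the gene groups. E2F letters were in 60.0% and CHR letters in 6.67% of 60 windows of replication licensing and fork genes, while in 71 windows of spindle and kinetochore genes the shares were 29.6% and 66.2%. These are descriptions of letters in a window, with no test, and do not show binding.

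**Figure D3:**
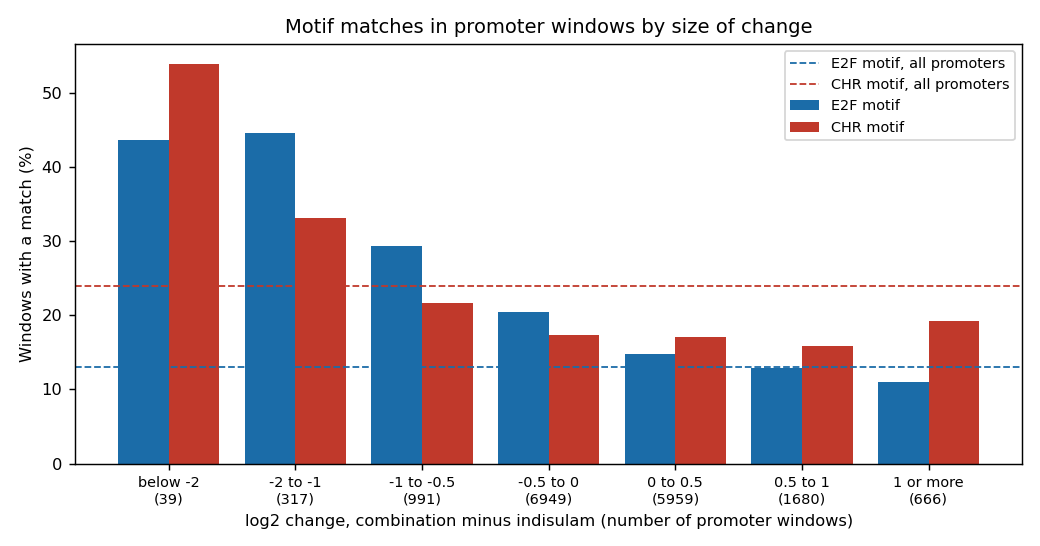
Share of promoter windows (%) with a match to the E2F letters (blue) or the CHR letters (red), by log2 change of the gene, combination minus indisulam, with the number of windows in brackets. Dashed lines are the shares over all 35116 windows. The E2F share is highest for genes that fell by a log2 change of 1 or more, and the CHR share for those below -2.

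The 12 largest increases among called genes of at least 5 CPM included ALS2CL, IGFL2-AS1, CCN4, SCARA5, ABCC3, DEPTOR, TMEM187, TMEM63C, PPL, PLIN4 and ZNF469. The 12 were smaller than the largest decreases, from 1.58 (ZNF469) to 1.92 (ALS2CL) on the log2 scale, and their mean levels ran from 5.97 CPM (TMEM187) to 80.2 CPM (ABCC3). ALS2CL was at 5.17 and 5.92 CPM with indisulam and 21.8 and 20.4 CPM with the combination, a 3.797-fold increase (log2 change 1.92, SE 0.09, adjusted p = 1.86e-11). ABCC3, an organic anion exporter, was at 34.05 and 37.3 CPM with indisulam and 132 and 117 CPM with the combination (log2 change 1.81, SE 0.07). DEPTOR, an inhibitor of mTOR kinase, was at 3.65 and 4.68 CPM with indisulam and 13.5 and 14.6 CPM with the combination (log2 change 1.74, SE 0.12). All combination libraries lay above all indisulam libraries for each of the 3 genes. The groups lay apart for 99.9% of all genes called higher. CCN4, a secreted matricellular protein induced by Wnt signalling, was at 5.94 and 6.24 CPM with indisulam and 22.2 and 21.1 CPM with the combination (log2 change 1.83, SE 0.09). PPL, the desmosomal linker periplakin, was at 4.93 and 4.72 CPM with indisulam and 14.9 and 15.9 CPM with the combination (log2 change 1.67, SE 0.09). PLIN4, a lipid droplet coat protein, was at 3.85 and 3.26 CPM with indisulam and 10.6 and 10.9 CPM with the combination (log2 change 1.60, SE 0.11). Of the 12, 8 overlap another annotated gene, and IGFL2-AS1 is an antisense transcript whose counts are uncertain because the strand setting of the counting is not given.

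The RB pathway itself had a smaller median change than the lists of replication and mitosis. In a list of D-type cyclins, CDK4/6, RB family members and CDK inhibitors, 17 of 19 genes were tested, 3 were higher and 9 lower, with a median log2 change of -0.29. Beside the counts of this list and those below stand 24.9% of all genes called higher and 28.0% called lower. Those shares are of the main fit. Under total counts more of all genes were called higher and fewer lower, so list counts under total counts stand beside a shifted background. The lists written for this comparison were chosen with earlier results of these data known, so their counts describe and do not test. CDK4 fell from 138 and 138 CPM to 93.97 and 92.01 CPM (log2 change -0.57, SE 0.04), and CDK6 was at 114 and 111 CPM with indisulam and 105 and 103 CPM with the combination (log2 change -0.11, SE 0.06, adjusted p = 0.145). CCND1, cyclin D1, rose from 467 and 471 CPM to 578 and 594 CPM (log2 change 0.32, SE 0.03). RB1 fell (log2 change -0.54, SE 0.05), and of its relatives RBL1 (p107) fell more, from 40.8 and 43.7 CPM to 14.1 and 14.5 CPM (log2 change -1.57, SE 0.06), while RBL2 (p130), the relative found in resting cells, rose from 72.4 and 67.9 CPM to 85.4 and 88.7 CPM (log2 change 0.31, SE 0.04). CDKN2C, the CDK4/6 inhibitor p18, fell (log2 change -1.03, SE 0.06), as did CKS1B, a subunit of cyclin-CDK complexes (log2 change -1.07, SE 0.06).

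Among the E2F, DP, MuvB, MYB and FOXM1 factors, 14 of 17 genes were lower and 2 higher (median -0.74), beside 28.0% and 24.9% of all genes. The activator E2F1 was at 40.7 and 44.1 CPM with indisulam and 13.8 and 14.1 CPM with the combination (log2 change -1.60, SE 0.07) and E2F2 at 29.1 and 27.3 CPM with indisulam and 6.99 and 4.75 CPM with the combination (log2 change -2.24, SE 0.11). MYBL2, the MYB protein of proliferating cells, was at 72.3 and 69.9 CPM with indisulam and 20.2 and 20.8 CPM with the combination (log2 change -1.79, SE 0.05), and FOXM1 was at 232 and 229 CPM with indisulam and 72.4 and 70.1 CPM with the combination (log2 change -1.69, SE 0.04). The genes that rose were E2F5, one of the repressor E2Fs, at 6.94 and 6.53 CPM with indisulam and 9.29 and 11.1 CPM with the combination (log2 change 0.59, SE 0.11), and TFDP2, a dimer partner of E2Fs (log2 change 0.23, SE 0.06). Of the later cyclins, CDK1, CDK2 and the CDC25 phosphatases, 16 of 17 tested genes were lower and 0 higher (median -1.43), CCNE1 being the one that did not pass. CDK1, the mitotic kinase, was at 129 and 126 CPM with indisulam and 31.7 and 31.99 CPM with the combination (log2 change -2.0, SE 0.05).

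Replication genes fell together. All 58 genes of the list of origin licensing and fork factors were called lower, with log2 changes from -2.48 (CLSPN) to -0.14 and a median of -1.22, beside 0.01 over all genes and 28.0% of all genes called lower. GINS2, a subunit of the replicative helicase, was at 34.6 and 34.5 CPM with indisulam and 7.86 and 8.03 CPM with the combination (log2 change -2.12, SE 0.07). MCM10, needed to start unwinding at origins, was at 72.8 and 72.98 CPM with indisulam and 18.03 and 17.003 CPM with the combination (log2 change -2.05, SE 0.06). MCM7, a subunit of the MCM helicase, was at 368 and 375 CPM with indisulam and 96.6 and 98.9 CPM with the combination (log2 change -1.93, SE 0.04). In none of GINS2, MCM10 and MCM7 did the groups overlap, as for 99.9% of all genes called lower. In the list of deoxynucleotide synthesis 18 of 22 genes were lower and 1 higher (median -0.52). The large subunit of ribonucleotide reductase, RRM1, was at 285 and 285 CPM with indisulam and 120.2 and 124 CPM with the combination (log2 change -1.23, SE 0.04), a smaller fall than that of RRM2. TK2, the thymidine kinase of mitochondria, was the 1 that rose (log2 change 0.43, SE 0.07). Of the replication-dependent histone genes, whose RNAs mostly lack the poly(A) tail by which these libraries were selected, 22 of 54 matched genes could be tested, and 3 were higher and 0 lower by edgeR, with a median of -0.15. The 3 were H3C6 (log2 change 1.23, SE 0.32), H2BC21 (log2 change 0.76, SE 0.17) and H2BC5 (log2 change 0.34, SE 0.13).

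Mitotic genes showed the lowest median of the 21 lists of genes written for this comparison. All 74 genes of the spindle, kinetochore and checkpoint list were called lower, against 28.0% of all genes, from -2.49 (SPC25) to -0.57, with a median of -1.65. Its members, like those of the replication list, were chosen with earlier results of these data known. SPC25, of the NDC80 complex that binds microtubules at the kinetochore, was at 20.3 and 18.9 CPM with indisulam and 3.46 and 3.4995 CPM with the combination (log2 change -2.49, SE 0.10). PLK1, the Polo-like kinase of mitotic entry, was at 226 and 227 CPM with indisulam and 50.1 and 50.4 CPM with the combination (log2 change -2.17, SE 0.04). TOP2A, the topoisomerase that untangles chromosomes in mitosis, was at 539 and 548 CPM with indisulam and 114 and 117 CPM with the combination (log2 change -2.23, SE 0.04). In the list of condensin, cohesin, lamina and chromatin copying genes 36 of 38 were lower and 0 higher (median -0.98), led by the condensin gene NCAPH, at 56.03 and 57.2 CPM with indisulam and 12.2 and 12.6 CPM with the combination (log2 change -2.19, SE 0.06), and by ESCO2, a cohesin acetyltransferase (log2 change -2.12, SE 0.07). In homologous recombination and the Fanconi anaemia pathway 37 of 42 genes were lower and 1 higher (median -0.95). EXO1, an exonuclease of DNA end resection, was at 58.6 and 59.5 CPM with indisulam and 13.9 and 12.2 CPM with the combination (log2 change -2.17, SE 0.06), and RAD54L, a motor protein of strand exchange, was at 49.4 and 51.5 CPM with indisulam and 15.3 and 13.8 CPM with the combination (log2 change -1.79, SE 0.07). FANCF was the 1 that rose (log2 change 0.33, SE 0.10). For these lists and that of replication, the counts under total-count scaling, DESeq2 and the replicate block were within 2 genes of these.

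**Figure D4:**
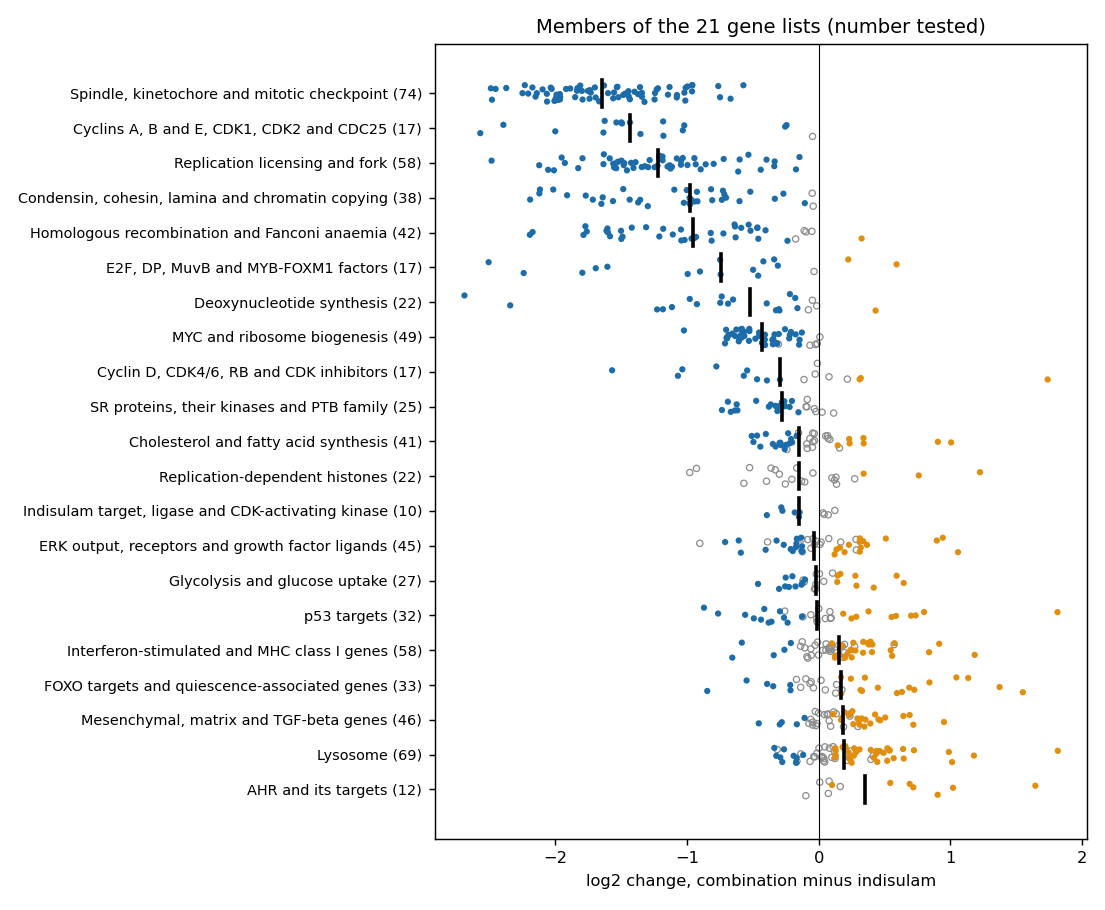
Log2 change (combination minus indisulam) of each tested member of 21 gene lists, ordered by median. Filled points passed an adjusted p of 0.05 (blue lower, orange higher), open points did not, and black bars are list medians. The spindle list has the lowest median, -1.65, and the AHR list the highest, 0.35.

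Genes of growth and RNA handling were lower by smaller steps, and their counts stand beside 28.0% of all genes called lower and 24.9% called higher. In the list of MYC and ribosome biogenesis 44 of 49 tested genes were lower and 0 higher (median -0.43; 38 and 1 under total counts), although MYC itself was at 409 and 407 CPM with indisulam and 398 and 405 CPM with the combination (log2 change -0.02, SE 0.03, adjusted p = 0.565). TCOF1, the nucleolar factor treacle, was at 279 and 299 CPM with indisulam and 137 and 148 CPM with the combination (log2 change -1.02, SE 0.04), and MRTO4, a factor of ribosome assembly, was at 164 and 163 CPM with indisulam and 98.1 and 102 CPM with the combination (log2 change -0.71, SE 0.04). Of the SR proteins, their kinases and the PTB family 18 of 25 were lower and 0 higher (median -0.28), with 16 and 1 under total counts. SRSF2 was at 461 and 461 CPM with indisulam and 276 and 278 CPM with the combination (log2 change -0.73, SE 0.03) and SRSF1 at 167 and 172 CPM with indisulam and 101 and 109.7 CPM with the combination (log2 change -0.69, SE 0.05), both regulators of exon choice. Of 10 genes of the indisulam target, its ligase and the CDK-activating kinase 6 were lower and 0 higher (median -0.15), among them DCAF15, the receptor that indisulam binds, at 30.4 and 29.8 CPM with indisulam and 22.7 and 23.2 CPM with the combination (log2 change -0.39, SE 0.07), and RBM23, a relative of RBM39 (log2 change -0.28, SE 0.04). With total counts this short list turned to 4 higher and 3 lower.

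Among the gene lists with positive medians, the lysosome list held 35 higher and 10 lower genes of 69 (median 0.20). Beside these stand 24.9% of all genes called higher. Under total counts, where more of all genes were called higher and fewer lower, 44 were higher and 5 lower. IDUA, a lysosomal glycosidase, was at 0.922 and 0.816 CPM with indisulam and 3.27 and 2.81 CPM with the combination (log2 change 1.82, SE 0.22). WIPI1, a phosphoinositide binder of autophagosome formation, was at 9.79 and 11.03 CPM with indisulam and 23.95 and 23.3 CPM with the combination (log2 change 1.18, SE 0.08). TFEB, the transcription factor of lysosomal genes, was at 8.06 and 7.802 CPM with indisulam and 12.3 and 12.5 CPM with the combination (log2 change 0.65, SE 0.10). Of FOXO targets and genes associated with quiescence 16 of 33 were higher and 6 lower (median 0.17). MXD4, a MAX partner that opposes MYC, was at 40.9 and 40.9 CPM with indisulam and 119.8 and 119.97 CPM with the combination (log2 change 1.55, SE 0.05), a 2.93-fold increase with duplicates that hardly differed. CCNG2, a cyclin that rises as cells leave the cycle, was at 9.505 and 9.504 CPM with indisulam and 21.3 and 20.4 CPM with the combination (log2 change 1.14, SE 0.08). Of AHR and its targets 7 of 12 were higher and 0 lower (median 0.35), with 5 higher by DESeq2 and 9 under total counts. CYP1A1, the xenobiotic oxidase that AHR controls, was at 12.6 and 12.5 CPM with indisulam and 22.95 and 24.04 CPM with the combination (log2 change 0.90, SE 0.08), and AHRR, the repressor of AHR, was at 23.2 and 24.3 CPM with indisulam and 38.6 and 39.7 CPM with the combination (log2 change 0.72, SE 0.06), while AHR itself was at 60.7 and 60.2 CPM with indisulam and 52.7 and 60.7 CPM with the combination and did not pass.

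Of interferon-stimulated and MHC class I genes 25 of 58 were higher and 5 lower (median 0.15), beside 24.9% and 28.0% of all genes. Under total counts, where more of all genes were called higher, 41 were higher. The number was 17 with DESeq2 and 22 with the replicate block, so it depends on the processing. MX2, an antiviral GTPase, was at 3.93 and 3.72 CPM with indisulam and 8.89 and 8.48 CPM with the combination (log2 change 1.19, SE 0.11). STAT2, a factor of the type I interferon response, was at 29.4 and 30.04 CPM with indisulam and 63.5 and 48.2 CPM with the combination (log2 change 0.92, SE 0.09). HERC5, an ISG15 ligase, went the other way (log2 change -0.66, SE 0.10), as did OAS3 (log2 change -0.58, SE 0.05). Of mesenchymal, matrix and TGF-beta genes 22 of 46 were higher and 5 lower (median 0.18), with 29 and 3 under total counts. COL5A1, a fibrillar collagen, was at 246 and 235 CPM with indisulam and 464 and 467 CPM with the combination (log2 change 0.95, SE 0.04). TWIST1 and ZEB1, transcription factors of the mesenchymal state, were lower (log2 change -0.45, SE 0.08 and log2 change -0.29, SE 0.05).

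The remaining lists were split, and their counts stand beside 24.9% of all genes called higher and 28.0% called lower. Under total counts the first share was larger and the second smaller. Of p53 targets 10 of 32 were higher and 12 lower (median -0.01), turning to 12 and 10 under total counts. TP53INP1, a stress-induced regulator of autophagy and death, was at 1.12 and 1.17 CPM with indisulam and 4.49 and 3.54 CPM with the combination (log2 change 1.81, SE 0.20), and AEN, an apoptosis-enhancing nuclease, was at 48.6 and 49.3 CPM with indisulam and 26.4 and 27.1 CPM with the combination (log2 change -0.87, SE 0.05). MDM2, which marks p53 for degradation, was at 91.9 and 87.9 CPM with indisulam and 68.1 and 72.3 CPM with the combination (log2 change -0.36, SE 0.05). Of ERK outputs, receptors and ligands 15 of 45 were higher and 15 lower, with 20 and 6 under total counts. PDGFRB, a growth factor receptor, was at 16.1 and 17.4 CPM with indisulam and 35.5 and 34.5 CPM with the combination (log2 change 1.06, SE 0.06), and FOSL1, an AP-1 factor downstream of ERK, was at 163 and 170.3 CPM with indisulam and 111 and 108 CPM with the combination (log2 change -0.61, SE 0.04). Of glycolysis genes 8 of 27 were higher and 10 lower, with 11 and 6 under total counts. Of cholesterol and fatty acid synthesis genes 7 of 41 were higher and 19 lower (median -0.15), with 11 and 17 under total counts. INSIG1, a sterol-responsive brake on cholesterol synthesis, was at 79.01 and 72.8 CPM with indisulam and 50.6 and 57.4 CPM with the combination (log2 change -0.49, SE 0.06).

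The study's 5 lists of senescence genes were read in the same way. For these drugs in SUM159 the study used the lists in gene set enrichment, after a longer treatment and at other doses. The counts here come from libraries taken at 16 h, with no set test, and do not repeat that reading. Some genes, IL1B among them, stand in more than 1 of these lists. The list named Casella had 23 of 36 tested genes higher and 1 lower (median 0.23), Purcell 17 of 35 higher and 5 lower (0.22), Hernandez 14 of 30 higher and 4 lower (0.07), the secreted factors of Hernandez 8 of 22 higher and 2 lower (0.18) and Fridman 28 of 67 higher and 12 lower (0.16). Beside these stand 24.9% of all genes called higher and 28.0% called lower. The lower counts of these lists depend on the processing. Fewer of all genes were called lower with total counts, and the lists had 0 (Casella), 1 (Hernandez), 1 (its secreted factors) and 6 (Fridman). With DESeq2 they had 0, 2, 1 and 9. The lower gene of the Casella list, RND3 (log2 change -0.17, SE 0.06), was thus not called lower under either. IL1B and IL1A, the interleukin 1 cytokines of the secretory programme, were at 0.682 and 0.674 CPM with indisulam and 1.68 and 2.13 CPM with the combination (log2 change 1.47, SE 0.25) and 1.12 and 1.49 CPM with indisulam and 2.34 and 2.85 CPM with the combination (log2 change 0.97, SE 0.20), low levels in all 4 libraries. F3, coagulation tissue factor, in the Fridman list, was at 378 and 391 CPM with indisulam and 877 and 817 CPM with the combination (log2 change 1.14, SE 0.04).

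To ask whether indisulam altered what palbociclib did, the same drug step without indisulam (palbociclib against untreated, from 4 libraries that the first comparison does not use) was set beside it. It called 8761 genes (54.5%), with 25.5% of all genes tested higher and 29.0% lower. Of the genes called higher with indisulam, 71.6% were called higher without it and 32 were called lower, and of those called lower 83.3% were called lower and 20 higher. Over 10673 genes of at least 5 CPM the log2 changes had Pearson's r = 0.91, a description over genes of 1 line that share a scaling. A test of the difference between the palbociclib effects called 704 genes (4.38%), 357 positive (2.22%) and 347 negative. It called 463 and 267 without combination replicate 1 or 2, 326 and 207 without indisulam replicate 1 or 2, 409 and 278 without untreated replicate 1 or 2, and 439 with DESeq2.

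Called differences were frequent in the spindle list, though most of them lay outside it. By estimate alone, the palbociclib effect was more negative with indisulam than without for 65 of its 74 genes and less negative for 9. The difference was called negative for 34 of the 74 and positive for 0, against 2.16% of all genes with a called negative difference. The median log2 change of the list was -1.65 with indisulam and -1.38 without. The number was 26 to 29 when a library of the untreated, indisulam or combination group was left out, 31 with DESeq2 and 0 when the difference had to exceed 2-fold. CDK1 changed by -2.0 with indisulam and -1.43 without, on the log2 scale (adjusted p of the difference = 4.31e-04). RRM2 was at 217 and 219 CPM without drug and 49.9 and 47.9 CPM with palbociclib, a log2 change of -2.16 beside -2.69 with indisulam (difference -0.53, adjusted p = 0.00201). In KIF20A and TYMS the changes with and without indisulam were nearly equal, with differences of -0.02 and 0.01. Of the 58 replication genes 12 had a negative and 1 a positive called difference, and the negative ones numbered 3 to 5 without 1 of the indisulam or combination libraries, 5 without untreated replicate 1, 6 with the replicate number as a block and 4 with DESeq2.

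The largest single differences lay elsewhere. NEAT1, the long non-coding RNA of nuclear paraspeckles, was at 236 and 196 CPM without drug, 754 and 895 CPM with palbociclib, 211 and 273 CPM with indisulam and 415 and 318 CPM with the combination (difference -1.33, adjusted p = 4.31e-04). It rose in both settings, and less so with indisulam. LTB4R, a leukotriene receptor gene, rose from 11.1 and 11.2 CPM to 21.7 and 24.1 CPM without indisulam and was at 14.5 and 14.1 CPM with indisulam and 14.5 and 13.5 CPM with the combination (difference -1.07). PIF1, a DNA helicase gene, was at 12.7 and 12.9 CPM without drug and 7.501 and 8.87 CPM with palbociclib, and fell further in the presence of indisulam, from 18.05 and 22.1 CPM to 7.02 and 5.29 CPM (difference -1.06). Positive differences were led by ZNF469 (0.92), GNB1L, CORO2B and FOXD2-AS1. GNB1L changed direction, from 6.94 and 8.33 CPM to 5.18 and 5.54 CPM without indisulam and from 7.38 and 7.91 CPM to 10.5 and 9.24 CPM with it (difference 0.88, adjusted p = 0.006398), and its call was lost without untreated replicate 2 (adjusted p = 0.0514). LTB4R overlaps LTB4R2, and GNB1L overlaps RTL10, on the same strand.

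**Figure D5:**
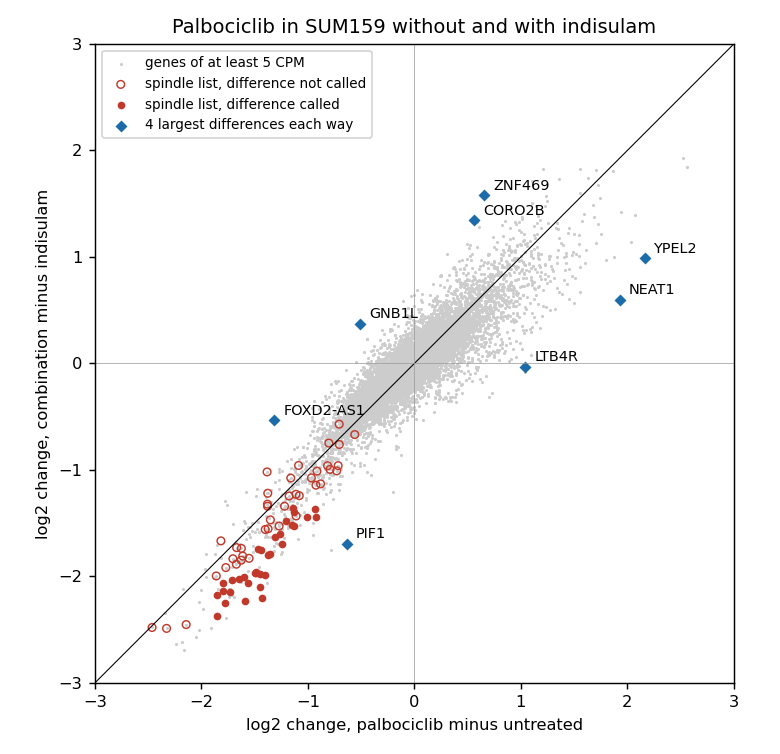
Log2 change on adding palbociclib in SUM159 without indisulam (horizontal axis) and with indisulam (vertical axis), for genes of at least 5 CPM. Red points are the 74 spindle genes, filled where the difference was called, and blue diamonds are the 4 largest called differences each way. The line marks equal changes, and the filled red points lie below it.

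The same drug step in A549 (combination against indisulam, 4 other libraries) called 6106 of 15744 genes (38.8%). Its spindle genes were all called lower, against 20.1% of all genes, with a median log2 change of -2.12 against -1.65 in SUM159, and its replication genes had a median of -1.51 against -1.22. A test of the difference between lines called 2610 of 17764 genes (14.7%), 1791 with a higher value in SUM159 (10.1%) and 819 with a lower one (4.61%), but this split turned with the tool and with single libraries. It was 923 and 1259 with DESeq2, and 28.5% to 32.9% of calls were on the higher side when 1 of the 4 A549 libraries was left out, with 1519 calls without SUM159 combination replicate 1 and 1586 without SUM159 indisulam replicate 1. For the spindle genes the fall was smaller in SUM159 for 56 of 74, and for 39 to 54 under the alternatives other than a minimum difference of 2-fold, which left 1, and for 0 was it larger. Among the replication genes 27 of 58 fell less and 1 fell more. For both lists these are numbers of called differences. LMNB1 changed by -2.12 in SUM159 and -2.53 in A549 (difference 0.48, adjusted p = 1.62e-04).

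CDKN1A RNA moved in opposite directions in the 2 lines at 16 h. In A549 it was at 40.8 and 40.9 CPM with indisulam and 52.3 and 49.5 CPM with the combination, a log2 change of 0.32 (adjusted p = 0.00269), beside -0.29 in SUM159 (difference -0.54, adjusted p = 2.24e-04). CCNB3, a cyclin of the B3 type, fell in SUM159 from 38.1 and 36.3 CPM to 11.2 and 12.02 CPM (log2 change -1.68, SE 0.07), and in A549 was at 1.41 and 1.57 CPM with indisulam and 1.43 and 1.36 CPM with the combination (difference -1.52). The other genes with the largest differences between lines had few counts in 1 of them. PRTFDC1, DENND2D and DRAIC had at most 11 counts in any of the 4 SUM159 libraries, and SLFN12, COL6A3 and CDYL2 had at most 11 counts in any of the 4 A549 libraries, where RASGRP3 had 11 to 22.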

How the data were processed

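The authors deposited, for each library, 1 table of unnormalized read counts by Ensembl gene. Per the study's methods, stranded poly(A) libraries were sequenced in pairs, trimmed with SeqPurge and aligned to GRCh38 with HISAT2 (2.2.1 in the submitters' processing notes, which also name HTSeq). The strand setting and annotation release are not given in the sources used here. Identifiers were matched to GENCODE release 44 (58207 of 58676), and rows that name no gene were left out.

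The 8 SUM159 libraries were fitted together with edgeR 4.0.16 in R 4.3.3 (glmQLFit, glmQLFTest, TMM scaling, filterByExpr, 1 mean per group, Benjamini-Hochberg adjusted p under 0.05). A549 was fitted likewise, and all 16 libraries for the difference between lines. CPM are counts scaled by the TMM library size. The genes named are those the study followed, the 12 largest increases and decreases at 5 CPM or more, up to 3 called members each way and the defining members of 26 lists (1028 of 1036 entries matched), and the 4 largest differences each way in the tests of a difference. Some genes that this rule names are not reported here. The members and lists were chosen with earlier results of these data known. Alternatives were DESeq2 1.42.0, total counts, other count filters (none, or 10 counts in every library), glmTreat at a log2 change of 1, the replicate number as a block, and leaving out each library. On simulated counts (15738 genes), edgeR recovered 85% of changes of 0.5 and 97% of changes of 1 on the log2 scale for the combination against indisulam, with 2.15% false calls. DESeq2 recovered 75% and 92%. Each size of change was given to 100 genes that averaged at least 1 CPM, with dispersions taken from the SUM159 libraries. The data had far more called genes than that.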

Additional observations from a re-analysis of the deposited data

Results flagged for a closer look

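The palbociclib effect in SUM159 differed with and without indisulam (test of the difference, adjusted p under 0.05) for these genes of the report, given as log2 differences. Values were negative for RRM2 (-0.53), FAM111B (-0.39), CDCA3 (-0.43), CCNA2 (-0.52), CLSPN (-0.58), AURKB (-0.52), CCNE2 (-0.62) and LMNB1 (-0.27), all of which fell in both settings and further with indisulam. The antisense transcript IGFL2-AS1 (-0.71) rose less with indisulam, as did NEAT1 (-1.33) and YPEL2 (-1.18), while LTB4R was at -1.07 and PIF1 at -1.06. Differences were positive for CCN4 (0.62), TMEM63C (0.61), ZNF469 (0.92), GNB1L (0.88), CORO2B (0.78) and FOXD2-AS1 (0.78). For YPEL2, whose levels without drug were 1.98 and 1.102 CPM, the call was lost without untreated replicate 2 (adjusted p = 0.115) or indisulam replicate 1 (0.0583).

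The effect of adding palbociclib to indisulam differed between SUM159 and A549 (SUM159 minus A549, log2) for further genes. Of those that fell, CDK2 (0.28), LMNB1 (0.48), RRM2 (0.47), FAM111B (1.06), CDCA3 (0.53), CCNA2 (0.43), SPC25 (0.79), KIF20A (0.27) and AURKB (0.55) fell less in SUM159. Of those that rose in SUM159, ALS2CL (1.69), IGFL2-AS1 (0.60), SCARA5 (1.39), ABCC3 (1.09), DEPTOR (0.71), TMEM187 (0.89), PPL (1.06) and ZNF469 (1.04) had higher values there. CDKN1A (-0.54) fell in SUM159 and rose in A549. CCNB3 (-1.52) and RASGRP3 (-1.30) had lower values in SUM159. The values for PRTFDC1 (4.19), DENND2D (3.14), SLFN12 (3.03), DRAIC (2.75), COL6A3 (-2.02) and CDYL2 (-1.95) set a well covered line against one with a few counts, so their size cannot be read as a ratio of effects. The same holds for TMEM63C (1.81, SE 0.45), which had few counts in A549, and for PLIN4 (1.88, SE 0.63, adjusted p = 0.0491 by edgeR), which did not pass the filter on low counts in A549. The split of calls between the lines turned with the tool and with single A549 libraries.

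Reads in no annotated feature, which no test used, made up 6.78% and 5.94% of the combination libraries and 5.70% and 6.08% of the indisulam libraries of SUM159, above the 3.99% and 3.89% of its untreated libraries. The groups with indisulam overlapped.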

How the results depend on the processing

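For combination against indisulam the number of called genes stayed within 1.5 times 8501 under each alternative except a minimum change of 2-fold (glmTreat), which left 273, and it ran from 6801 to 7486 with 1 library left out. That minimum left 295 genes for palbociclib against untreated (7249 to 8300 with 1 library left out), 274 for A549 (4209 to 5473), 5 for the difference between lines and 0 for the difference with and without indisulam, where 53 genes had an unadjusted p under 0.05. The last test called 439 genes with DESeq2 and 207 to 941 with 1 library left out, and the difference between lines 1519 to 3272. Its calls were 30.1% positive when 10 counts were asked of every library, against 68.6% in the main fit. The difference with and without indisulam was 29.8% positive with no filter and 62% with 10 counts in every library, against 50.7%. With total counts the higher share of calls was 62.5% for palbociclib against untreated, against 46.8%, and 61.2% for A549, against 48.1%. The causes were not tested.

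The replicate number as a block called 8211 genes for combination against indisulam. Deviations of same-numbered libraries correlated at -0.04 over all genes and -0.245 over genes of at least 5 CPM, so the numbers were not taken to pair the libraries. A crossed pairing, added after seeing the data, called 8878. Of 607 values of the named genes under alternatives, 3 changed sign, all of CCNE1, which did not pass the test in any (0.049 with total counts, 0.024 with all 16 libraries and 0.0062 with 10 counts in every library). Of 156 list counts under 3 alternatives, 17 moved by over 1.5 times. With 2 technical duplicates, changes of 0.5 on the log2 scale were found by edgeR in 85% of simulated cases and by DESeq2 in 75%. In the simulation far fewer genes changed than were called in the data, and it put no change into the genes of lowest level.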
